A study of Rattus norvegicus with 9 samples.

Results

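The levels of 9 neuroendocrine genes (Calca, Chga, Chgb, Grp, Syp, Insm1, Resp18, Scg2 and Scg5) were examined in whole fetal lungs of Sprague-Dawley rats. The rule names the genes by symbol, matched here to NCBI Gene IDs, and uses no measured value, but the set was chosen with earlier results of these data known. The table of 17465 genes gave values for 8 of them, and Insm1 was not analysed here. RNA was sequenced after removal of ribosomal RNA from 3 control lungs (untreated), 3 hypoplastic lungs (untreated, underdeveloped in a model of oligohydramnios, too little amniotic fluid) and 3 lungs of the same model that received extracellular vesicles of amniotic fluid stem cells (AFSC-EVs). By their labels the hypoplastic and the treated lungs share the hypoplasia and differ by the vesicles, and the control lungs differ from the treated lungs by both. The sources used here do not give fetal age, vesicle dose and route, litter or the way the fluid was lost. Nothing in the labels says that the 3 lungs of a group came from different litters, so the p-values measure the spread between these lungs.

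Pulmonary neuroendocrine cells are rare airway epithelial cells, single or clustered as neuroepithelial bodies near branch points, and are the first specialised cells to appear in the developing airway. They sense oxygen and other stimuli, store peptides and amines in dense-core granules and release them onto neighbouring cells and nerve endings. The genes examined encode peptides (Calca and Grp), proteins of the granules (Chga, Chgb, Scg2, Scg5 and Resp18), a protein of small synaptic vesicles (Syp) and a transcription factor of neuroendocrine fate (Insm1). All are also well known from neurons or from endocrine cells outside the lung, so their level in a whole lung is not specific to the airway cells.

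Libraries held between 56922779 and 88243188 estimated counts. Levels are given in CPM, counts scaled to the TMM-adjusted size of each library, and 1 count was worth 0.012 to 0.0181 CPM. All member genes were low: the highest value of any member in any library was 1.82 CPM. Of the 8 genes, 5 (Calca, Chga, Syp, Scg2 and Scg5) passed the filter on low counts, which asked for about 0.153 CPM in at least 3 libraries. Chgb, Grp and Resp18 did not pass it and have no test in the main fit. Scg2 passed through control library 1 and hypoplastic libraries 1 and 2 only. In a whole lung, fewer cells of a type and less RNA per cell cannot be told apart.

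Hypoplastic libraries 1 and 2 stood apart from hypoplastic library 3 and from the other groups by markers of tissue other than lung epithelium. The summed level of 8 heart muscle genes was 256 and 122.5 CPM in them, against 4.07 CPM in hypoplastic library 3, 4.34 to 19.4 CPM in control lungs and 4.55 to 10.7 CPM in treated lungs. By the levels of Xist and Y-linked genes these 2 lungs were female and hypoplastic library 3 male, and the control, hypoplastic and treated groups held 2, 1 and 1 males. The fold changes of the tested members are therefore given with and without these 2 libraries where the comparison reads them, as are those of some lists. That setting was chosen after the data were seen.

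Calca, which encodes calcitonin and, by alternative splicing, the calcitonin gene-related peptide of neuroendocrine cells and sensory nerves, was the member with the most counts, 542 over the 9 libraries. Its level was 0.950, 0.25 and 1.37 CPM in the control lungs, 1.33, 0.653 and 1.52 CPM in the hypoplastic lungs, and 0.290, 0.945 and 0.778 CPM in the treated lungs. The 3 groups overlapped, and libraries of 1 group differed by up to about as much as libraries of different groups. Counts per gene do not separate calcitonin from the peptide of the other splice form.

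Grp encodes gastrin-releasing peptide, a product by which airway neuroendocrine cells are commonly recognised. It had 6 counts in all 9 libraries together: 1 in control library 3, 2 in hypoplastic library 3, 3 in treated library 1 and 0 in the other 6. In those 6 libraries a count of 0 allows at most 0.0359 to 0.0535 CPM, taken as 3 counts. Grp was thus at or below that limit in every group, and no fold change is given.

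The granins Chga and Chgb are acidic proteins that help to form dense-core granules. Chga was at 0.169, 0.107 and 0.285 CPM in control, 0.397, 0.278 and 0.235 CPM in hypoplastic, and 0.132, 0.299 and 0.118 CPM in treated lungs. All groups overlapped for Chga. Chgb was at 0.0460, 0.0535 and 0.0136 CPM in control lungs and at 0.0263, 0.0598 and 0.0441 CPM in treated lungs. Among hypoplastic lungs Chgb was at 0.595 CPM (39 counts, exact Poisson 95% interval 0.423 to 0.813) in library 1 and 0.474 CPM (29 counts, 0.317 to 0.680) in library 2, but had 0 counts in library 3 (0 to 0.0668). The 2 high libraries lay above every other library beyond counting error, and the hypoplastic group as a whole overlapped both other groups. Intervals cover counting error only.

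Scg2 encodes secretogranin II, the precursor of secretoneurin. Its level was 0.215, 0.0357 and 0.0678 CPM in control, 0.549, 0.359 and 0.0181 CPM in hypoplastic, and 0.0395, 0.108 and 0.0587 CPM in treated lungs. Hypoplastic libraries 1 and 2 held the highest values and hypoplastic library 3, with 1 count, the lowest. Scg5 encodes 7B2, the chaperone of the prohormone convertase PC2. It was at 0.184, 0.125 and 0.637 CPM in control, 0.747, 0.865 and 0.163 CPM in hypoplastic, and 0.25, 0.144 and 0.118 CPM in treated lungs. The same pair of hypoplastic libraries was highest, with control library 3 next.

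Syp encodes synaptophysin, a membrane protein of small vesicles in neurons and neuroendocrine cells. Control lungs held 0.276, 0.624 and 0.366 CPM, hypoplastic lungs 1.82, 1.49 and 0.489 CPM, and treated lungs 0.421, 0.347 and 0.485 CPM. Hypoplastic libraries 1 and 2 were above every other library, and hypoplastic library 3 lay among the control values and just above treated library 3. Resp18, a granule protein of endocrine and brain tissue, was at 0.0613, 0 and 0.176 CPM in control, 0.0153, 0.425 and 0.0362 CPM in hypoplastic, and 0, 0.0598 and 0.132 CPM in treated lungs. A single library, hypoplastic 2, carried 26 of its 60 counts.

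**Figure D1:**
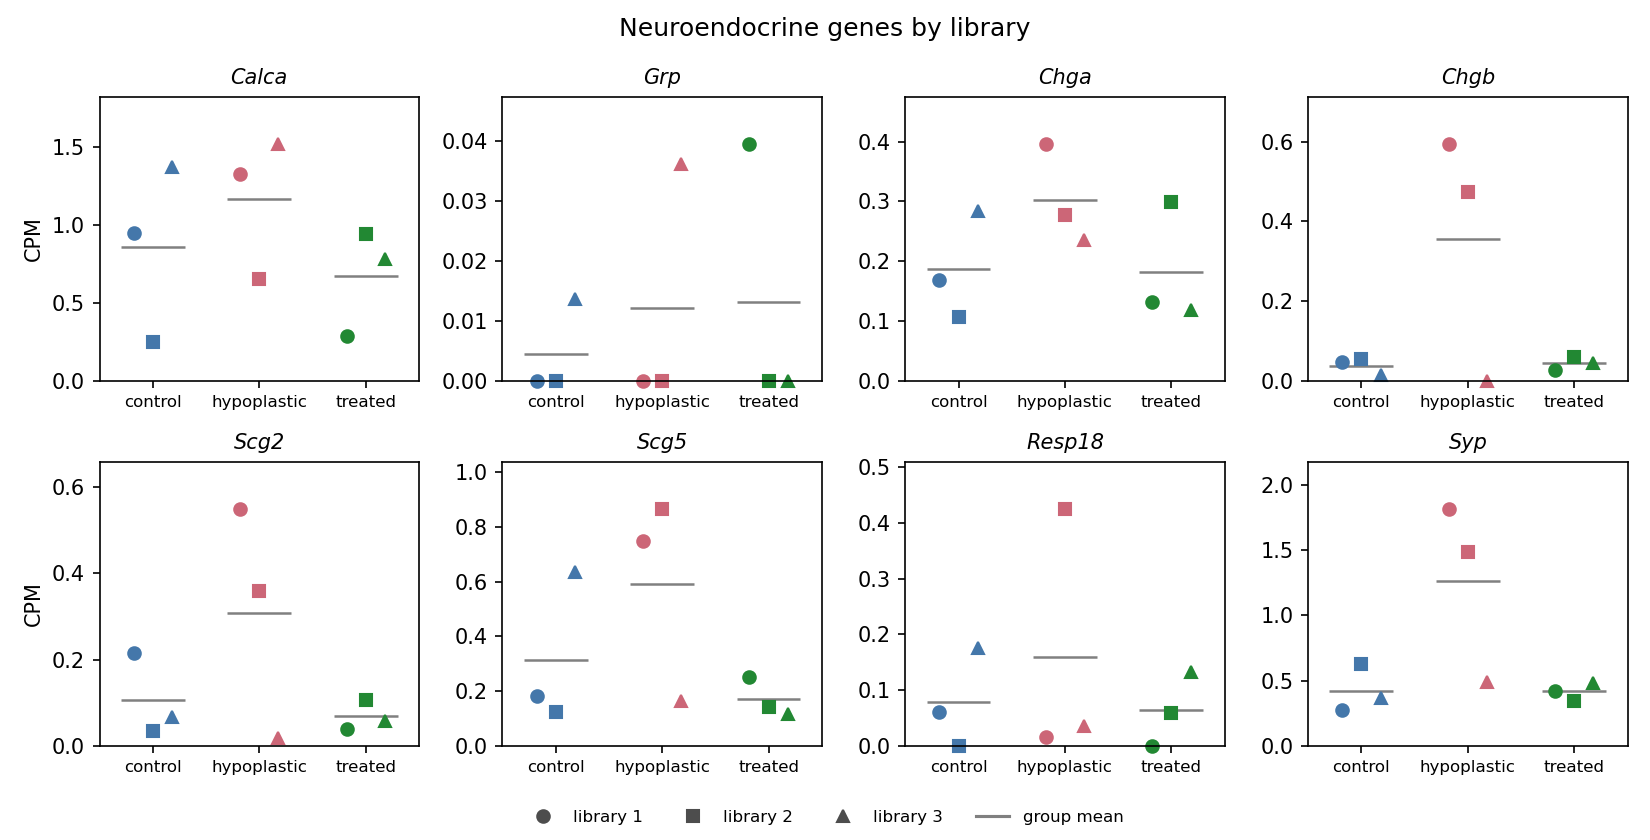
Level (CPM, linear axis from 0, a scale of its own in each panel) of the 8 members with values, by group; each symbol is 1 library and the grey line the group mean. For Chgb, Scg2, Scg5 and Syp the circle and the square of the hypoplastic group (libraries 1 and 2) are the 2 highest of the 9 values. The triangle (library 3) is the lowest of the 9 for Chgb and Scg2 and lies within the control range for Scg5 and Syp. Grp does not exceed 0.0395 CPM.

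Hypoplastic libraries 1 and 2 were thus the 2 highest of 9 for Chgb, Scg2, Scg5 and Syp, 4 of the 8 members and 3 of the 5 tested. Of all genes tested, 4.5% had these libraries as their 2 highest. Because these 4 members shared this order, the bases before their starts are shown, from the RefSeq promoter table of assembly GRCr8, which matched 7 of the 8 members. Each run is the 250 bases before the annotated gene start, 5′ to 3′ on the gene's strand. Capitals mark exact matches to 4 motifs searched on both strands: TGACGTCA (the cAMP response element, CRE), CAGCTG (an E-box, the element of basic helix-loop-helix factors), and TTCAGCACC and GGACAG (the left and right part of RE1, the element bound by the neuronal repressor Rest). The regions are chr9:88256867-88257116 on the minus strand for Scg2, chrX:17536450-17536699 on the minus strand for Syp, chr3:140496462-140496711 on the plus strand for Chgb and chr3:121042796-121043045 on the minus strand for Scg5.
Scg2: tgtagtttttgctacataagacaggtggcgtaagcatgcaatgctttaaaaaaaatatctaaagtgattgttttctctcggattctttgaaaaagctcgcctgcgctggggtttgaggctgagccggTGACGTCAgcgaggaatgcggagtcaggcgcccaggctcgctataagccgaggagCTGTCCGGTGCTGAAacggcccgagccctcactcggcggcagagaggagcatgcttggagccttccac
Syp: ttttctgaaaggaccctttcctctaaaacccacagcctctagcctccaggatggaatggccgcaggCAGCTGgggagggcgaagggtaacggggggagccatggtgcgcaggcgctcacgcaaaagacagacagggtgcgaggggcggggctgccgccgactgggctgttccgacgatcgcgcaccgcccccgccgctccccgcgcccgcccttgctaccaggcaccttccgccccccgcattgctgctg
Chgb: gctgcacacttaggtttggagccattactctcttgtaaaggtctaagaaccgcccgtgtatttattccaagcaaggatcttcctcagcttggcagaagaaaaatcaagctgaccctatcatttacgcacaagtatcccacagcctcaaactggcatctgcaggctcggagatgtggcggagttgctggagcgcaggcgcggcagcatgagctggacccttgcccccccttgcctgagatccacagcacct
Scg5: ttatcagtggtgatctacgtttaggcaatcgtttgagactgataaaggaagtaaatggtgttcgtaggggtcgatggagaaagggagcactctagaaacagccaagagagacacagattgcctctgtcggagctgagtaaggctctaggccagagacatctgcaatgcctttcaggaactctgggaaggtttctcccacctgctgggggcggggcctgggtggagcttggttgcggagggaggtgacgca

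The Scg2 region held a CRE at 123 to 116 bases before the start, and both RE1 parts in reverse (CTGTCC at 68 to 63 and GGTGCTGAA at 62 to 54 bases before it), directly beside each other. The RE1 parts were searched for separately, with no spacing asked for, so the pair is not shown to be a whole RE1. The Syp region held 1 E-box at 184 to 179 bases before the start, and the Calca region, not shown, 1 at 20 to 15 bases. None of the 4 motifs was found in the windows of Chgb, Scg5, Grp and Resp18. In the 33469 windows of this length in the table, 1.59% held the CRE, 12% the E-box, 0.305% the left and 18.2% the right RE1 part. The 4 members thus shared none of these letters, and a match is a description of the sequence, not of binding.

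Hypoplastic were first set against control lungs, which asks what differed in the model of hypoplasia. By edgeR's quasi-likelihood test 0 of the 5 tested members passed a Benjamini-Hochberg adjusted p of 0.05, where 0.00771% of all 12966 genes tested (1 gene) did. DESeq2 and limma voom also called 0 members, and DESeq2 called 1.56% of all genes. Syp alone (1 of 5) reached an unadjusted p below 0.05, as did 12.4% of all genes. All 5 had a fold change above 0, as did 51.9% of all genes. Of the 5, Scg2 passed the filter only through hypoplastic libraries 1 and 2, where it is high, and control library 1. No member of the 8 had library values without overlap between these groups (16.7% of all genes tested).

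In hypoplastic against control lungs Syp had a log2 fold change of 1.62, with an SE of 0.495 and an edgeR adjusted p of 0.323. It was 1.27 without hypoplastic library 1, 1.99 without hypoplastic library 3 and 0.24 (SE 0.606) without hypoplastic libraries 1 and 2. Scg2 had 1.56 (SE 0.860, edgeR adjusted p 0.482) and Scg5 0.86 (SE 0.670, edgeR adjusted p 0.629). Without hypoplastic libraries 1 and 2 the sign of both turned, to -2.46 (SE 1.887) for Scg2 and -1.01 (SE 1.127) for Scg5, with 1 hypoplastic library assumed to vary like the other groups. With 1 library left out Scg2 ranged from 0.853 (without hypoplastic library 1) to 2.54 (without control library 1). Scg5 ranged from 0.505 (without hypoplastic library 2) to 1.94 (without control library 3), and was at 0.34 with sex as a term. Chga had 0.66 (SE 0.546, edgeR adjusted p 0.647) and Calca 0.40 (SE 0.569, edgeR adjusted p 0.806). Without control library 2, in which both were lowest, Calca was at -0.0046. Chga ranged from 0.410 without hypoplastic library 1 to 1.12 without control library 3. Without hypoplastic libraries 1 and 2 Calca moved away from 0, to 0.79, and Chga was at 0.28.

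Chgb was tested only where the filter was lifted or another library was left out. With no filter on low counts its log2 fold change was 3.29 (SE 0.927, p 0.00311, edgeR adjusted p 0.308). Without hypoplastic library 3, in which it had 0 counts, edgeR called Chgb with a fold change of 3.83 (SE 0.539, adjusted p 0.0110). In that setting Chgb passed the filter only through hypoplastic libraries 1 and 2, where it is high, so it had to differ and the call supports nothing. Over the other 7 settings that tested it, the edgeR adjusted p was 0.308 to 0.762, and the fold change 2.86 to 3.6. Apart from the setting with no filter, these left out a control or treated library. In them Chgb again passed only through hypoplastic libraries 1 and 2, so they support nothing either. The median of the 5 tested members was 0.86, and 0.24 without hypoplastic libraries 1 and 2, where 3 of 5 lay above 0. The median of all genes tested was 0.01 and -0.01 in these 2 settings. As 3 members did not pass the filter, these medians are not those of the whole set.

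**Figure D2:**
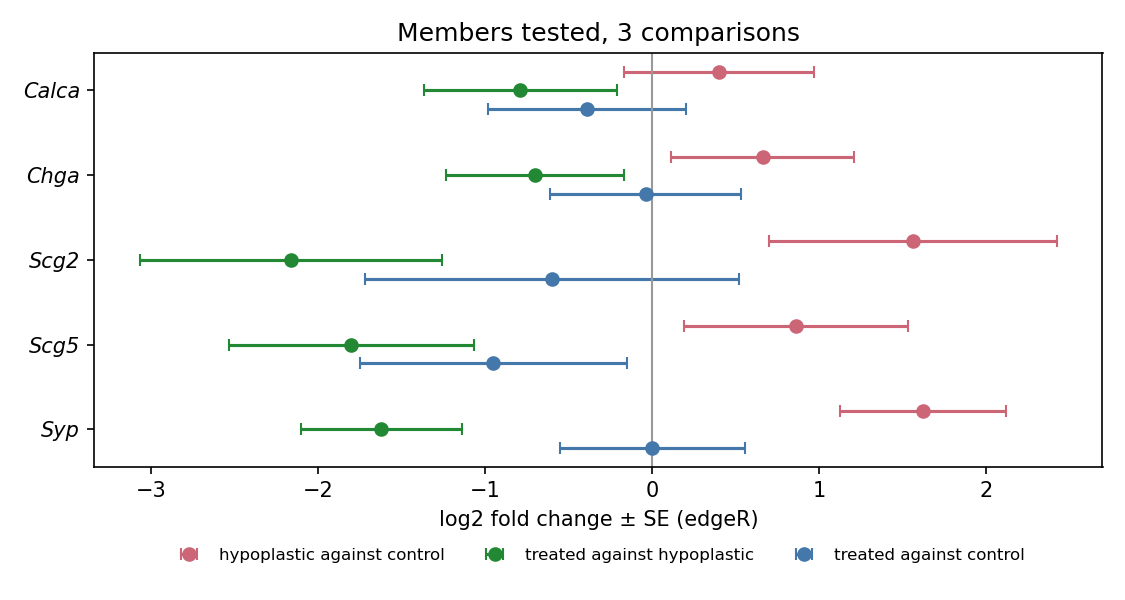
Log2 fold change (edgeR) of the 5 tested members in the 3 comparisons, with bars of 1 SE on each side. All 5 lie above 0 in hypoplastic against control and below 0 in treated against hypoplastic, 2 comparisons that share the hypoplastic libraries; none passed an adjusted p of 0.05.

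Treated were next set against untreated hypoplastic lungs, which asks what differed with the vesicles. edgeR called 0 of the 5 members, as it called 0% of all genes. DESeq2 and limma voom called 0 members, and DESeq2 called 0.132% of all genes. Syp, Scg5 and Scg2 (3 of 5) reached an unadjusted p below 0.05, as did 5.56% of all genes. All 5 had a fold change below 0, where 48.1% of all genes tested were above 0. Scg2 passed the filter only through hypoplastic libraries 1 and 2, where it is high, and control library 1. No treated library let it through, so its part in both counts supports nothing. Syp alone of the 8 had values without overlap, and 9.81% of all genes did. That gap was narrow, 0.489 CPM in hypoplastic library 3 against 0.485 CPM in treated library 3, where the counting intervals (0.322 to 0.711 and 0.334 to 0.680 CPM) overlapped.

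The log2 fold change of treated against hypoplastic lungs was -1.62 (SE 0.482, edgeR adjusted p 0.826) for Syp, and -0.24 (SE 0.599) without hypoplastic libraries 1 and 2. Scg2 had -2.16 (SE 0.903, edgeR adjusted p 0.895) and Scg5 -1.80 (SE 0.734, edgeR adjusted p 0.895). Without hypoplastic libraries 1 and 2 these were 1.85 (SE 2.021) and 0.07 (SE 1.221). Calca had -0.79 (SE 0.578), and from -1.14 (without treated library 2) to -0.425 (without treated library 1) with 1 library left out. Chga had -0.70 (SE 0.532), and from -1.28 (without treated library 2) to -0.452 (without hypoplastic library 1). Without hypoplastic libraries 1 and 2 Calca was further from 0, at -1.17, and Chga was at -0.32. Chgb with no filter had -3.01 (SE 0.851, p 0.00316, edgeR adjusted p 0.684), and edgeR called it at -3.55 (SE 0.498, adjusted p 0.00974) without hypoplastic library 3, again let through the filter only by the 2 libraries where it is high. Its adjusted p was 0.652 to 1 over the other 7 settings, which used no filter or let Chgb through only by the same 2 libraries. The comparison with control lungs used the same hypoplastic libraries, so the opposite signs of the 2 comparisons are not independent results.

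Treated lungs were last set against control lungs, a comparison in which no hypoplastic library is on either side. The filter on low counts, the scaling and the estimate of spread were still shared with the hypoplastic libraries. Scg2 passed that filter only with hypoplastic libraries included, and had no value with the treated and control libraries alone. edgeR called 0 of the 5 members and 0% of all genes, and DESeq2 and limma voom called 0 members (DESeq2 called 0.108% of all genes). No member had an unadjusted p under 0.05 (4.17% of all genes), and none had values without overlap (9.39% of all genes). The fold changes were 0.00 (SE 0.553) for Syp, -0.04 (SE 0.574) for Chga, -0.39 (SE 0.590) for Calca, -0.60 (SE 1.119) for Scg2 and -0.95 (SE 0.801) for Scg5, each with an edgeR adjusted p of 0.998 or more. A fold change above 0 was found for 50.6% of all genes.

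**Figure D3:**
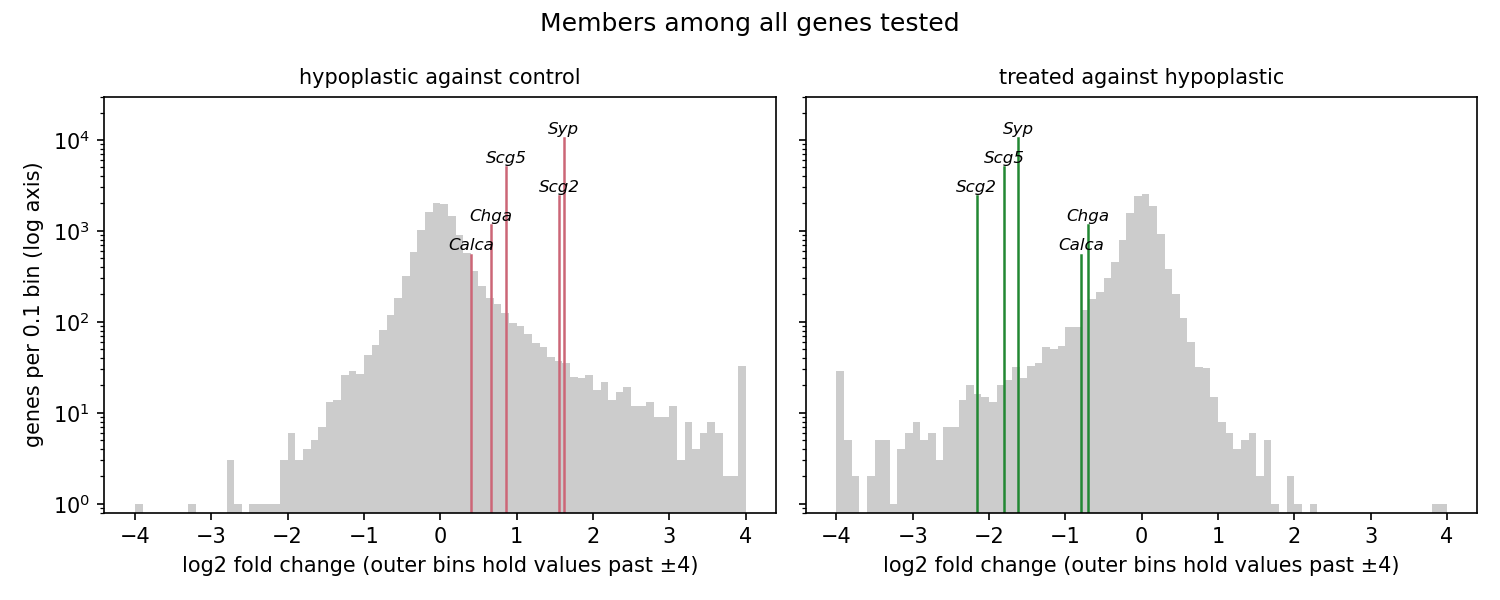
Distribution of the log2 fold change over all genes tested (grey, bins of 0.1, log count axis) in hypoplastic against control (left) and treated against hypoplastic (right), with a line at each tested member. Syp and Scg2 lie at 1.62 and 1.56 on the left and, with Scg5, between -2.16 and -1.62 on the right, in the thinner flanks, where other genes also lie.

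Markers of other cell types were set beside these values. Of 18 genes of neurons, 17 had values and 11 were tested. All 11 lay above 0 in hypoplastic against control lungs (51.9% of all genes did), with a median of 1.76 and none called. Of them 7 had an unadjusted p under 0.05 by edgeR, as did 12.4% of all genes. Among the 7, Slc18a3 passed the filter only through the hypoplastic libraries (0.7015, 0.3756 and 0.2172 CPM), so it had to lie above 0. Th, also of the 7, passed only through hypoplastic libraries 1 and 2 and control library 2. Without hypoplastic libraries 1 and 2 the median was -0.08 and 5 of 11 lay above 0. The median was 1.18 without hypoplastic library 1 alone and 1.43 without hypoplastic library 2 alone. Their summed level is mostly Ret (55.3%), a receptor gene at 5.86 CPM in hypoplastic library 1 and 20.7 CPM in hypoplastic library 2. Without Ret the sum was 5.13 to 6.10 CPM in control, 7.31 to 29.4 CPM in hypoplastic and 5.46 to 8.35 CPM in treated lungs. Hypoplastic libraries 1 and 2 were the 2 highest for 8 of the 11 tested neuron genes (Slc18a3 and Th among them), against 4.5% of all genes. None of the 17 was at 0 in all libraries.

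Prph, the intermediate filament peripherin of peripheral neurons, was at 5.61, 4.93 and 2.19 CPM in hypoplastic lungs and at 0.892 to 1.49 CPM in control lungs. Its log2 fold change was 1.76 (SE 0.357, edgeR adjusted p 0.317), and in treated against hypoplastic lungs -1.23 (SE 0.341, edgeR adjusted p 0.826). Tubb3, a neuronal tubulin, was at 4.51, 3.61 and 0.272 CPM in hypoplastic lungs, at 0.383 to 0.517 CPM in control lungs and at 0.646 to 0.909 CPM in treated lungs. Stmn2, a growth cone protein of neurons, was at 5.31, 2.73 and 1.30 CPM in hypoplastic lungs and had -1.66 (SE 0.503, edgeR adjusted p 0.836) in treated against hypoplastic lungs. The Tubb3 order of libraries 1, 2 and 3 within the hypoplastic group was also that of Syp, Chgb, Scg2 and Chga, but not of the other members. It is not particular to neuron genes. Some epithelial and airway genes (Krt8, Krt18, Scgb3a2 and Cyp2f4) had it too, and others, such as Epcam and Foxj1, did not.

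Of 7 glial genes, 6 had values and 5 were tested. In hypoplastic against control lungs 4 of the 5 lay above 0 (51.9% of all genes did). The median of the 5 was 1.44 and, without hypoplastic libraries 1 and 2, -0.18. With a filter of 1 CPM in 3 libraries the median was -0.04, so it rests on glial genes of low level. Without Erbb3, which epithelium also expresses and which made 97.2% of the sum, the glial genes summed to 2.77 to 3.003 CPM in control, 2.46 to 9.39 CPM in hypoplastic and 2.29 to 3.10 CPM in treated lungs. Of the 8 heart muscle genes 7 were tested, all above 0 (51.9% of all genes were). Their median was 3.23, and -3.32 without hypoplastic libraries 1 and 2. In treated against hypoplastic lungs the medians were -1.80 for neuron, -1.30 for glial and -4.16 for heart muscle genes, and -0.27, -0.05 and 2.45 without those 2 libraries. Tnni3, cardiac troponin I, was at 12, 5.94 and 1.86 CPM in hypoplastic lungs and Myl4, the atrial light chain, at 14.6, 8.98 and 0.0724 CPM. The part of nerve, glial and heart tissue in the values of Syp, Chgb, Scg2 and Scg5 was not tested.

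**Figure D4:**
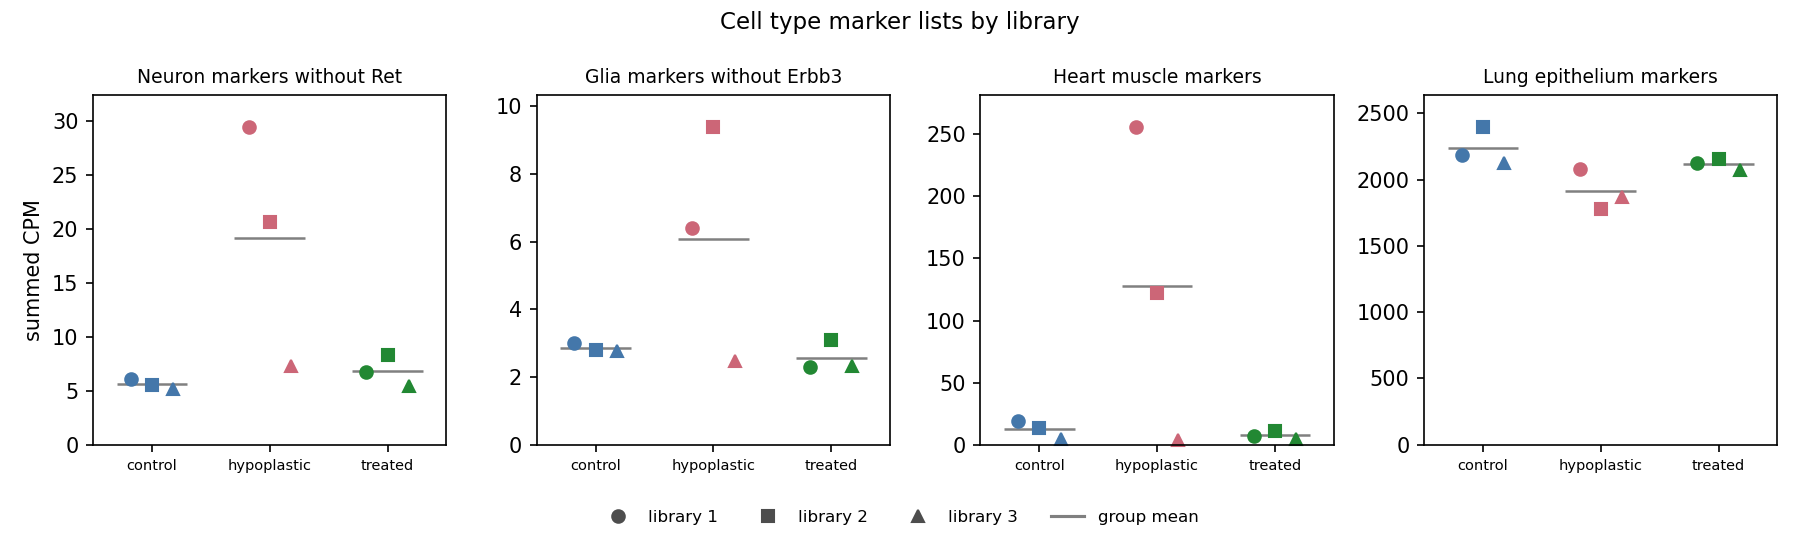
Summed CPM of marker lists by library (linear axes from 0; symbols are libraries, grey lines group means). Hypoplastic libraries 1 and 2 are the highest for neuron markers without Ret (up to 29.4 CPM), glial markers without Erbb3 (up to 9.39 CPM) and heart muscle markers (up to 256 CPM), while hypoplastic library 3 lies near the other groups; lung epithelium markers do not follow that order.

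For none of the 8 lung epithelium and 5 airway genes were hypoplastic libraries 1 and 2 the 2 highest. Only 4.5% of all genes tested had them so, and in lists this short a count of 0 is near that share. The sum of 8 epithelial genes was 2123 to 2398 CPM in control, 1780 to 2080 CPM in hypoplastic and 2074 to 2156 CPM in treated lungs. Of the 8, 7 lay below 0 in hypoplastic against control lungs, where 51.9% of all genes lay above 0. Their median was -0.24 and none was called. By edgeR 2 of the 8 had an unadjusted p under 0.05, as did 12.4% of all genes. These were Nkx2-1, the lung lineage transcription factor, and Cdh1, E-cadherin. The 5 airway genes had a median of -0.24 and summed to 234 to 453 CPM in control, 213 to 345 CPM in hypoplastic and 229 to 329 CPM in treated lungs. Of 5 thyroid and parathyroid genes, a tissue whose C cells make calcitonin, 3 were tested, with a median of -0.26 and a summed level of 3.17 CPM or less in every library, and Pth was at 0 in all. Of 6 thymus genes 2 were tested, with a median of -0.07 and a sum of 3.30 CPM or less in every library.

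Regulators of neuroendocrine fate were low or showed no call. Neurod1, a factor of neuroendocrine differentiation, had 4 counts in control library 2 and 1 in hypoplastic library 3, and Nkx2-2 had 0 counts in all libraries. Grp, Neurod1 and Nkx2-2 thus sat at or near the limit of the depth, and the label of the gene set could not be checked by them. Of 14 regulators 7 were tested and none was called, with medians of 0.14, -0.08 and 0.19 in the 3 comparisons, in the order given above.

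Prox1, a transcription factor of neuroendocrine cells that lymphatic endothelium also expresses, was at 2.12 to 3.25 CPM in control, 4.47, 9.13 and 4.25 CPM in hypoplastic and 2.85 to 4.14 CPM in treated lungs. Its library values did not overlap between hypoplastic and either other group, with log2 fold changes of 1.05 (SE 0.327, edgeR adjusted p 0.323) against control and -0.79 (SE 0.321, edgeR adjusted p 0.895) for treated against hypoplastic. The gap to the treated lungs was narrow, 4.25 CPM in hypoplastic library 3 (counting interval 3.73 to 4.83) against 4.14 CPM in treated library 3 (3.67 to 4.65). Of all genes, 16.7% and 9.81% had no overlap in these comparisons. Rest, the repressor of neuronal genes, had 0.26 (SE 0.149) in hypoplastic against control, and Hes6, an inhibitor of Hes1, had 0.10 (SE 0.172) in treated against hypoplastic lungs. Rest (0.18, SE 0.149) and the Notch target Hes1 (0.19, SE 0.219) had the smallest p of the regulators with at least 1 CPM in treated against control lungs.

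Among 12 genes of granule formation and peptide processing 11 were tested and none was called. In hypoplastic against control lungs 9 of 11 lay above 0 (51.9% of all genes did), with a median of 0.75. Without hypoplastic libraries 1 and 2 the median was -0.30 and 2 lay above 0. It was 0.28 without hypoplastic library 1 alone, 0.20 without library 2 alone, 1.15 without library 3 alone, 0.35 with limma voom and 0.33 with sex as a term. In treated against hypoplastic lungs all 11 lay below 0, where 48.1% of all genes lay above 0. Of the 11, 5 had an unadjusted p under 0.05 by edgeR, as did 5.56% of all genes. Among the 5, Pcsk2 had 0 counts in every treated library and passed the filter through control and hypoplastic libraries only. It thus had to lie below 0. The median of the 11 was -0.86, and 0.02 without hypoplastic libraries 1 and 2. It was -0.32 without hypoplastic library 2 alone, -1.32 without hypoplastic library 3 alone, -1.29 without treated library 2 and -0.40 with a filter of 1 CPM in 3 libraries. In treated against control lungs the median was -0.21. The library that was high differed between genes of this list. Ptprn, a membrane protein of dense-core granules, was at 24.7 CPM in hypoplastic library 2 and at 0.803 to 5.01 CPM in the other 8. Vgf, a neuropeptide precursor, was at 5.45 CPM in hypoplastic library 2 and 4.90 CPM in treated library 2, against 0.582 to 1.38 CPM in the others.

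For Vgf the log2 fold change was 2.11 (SE 0.835, edgeR adjusted p 0.369) in hypoplastic and 1.90 (SE 0.830, edgeR adjusted p 0.998) in treated against control lungs, without overlap of the libraries in either (16.7% and 9.39% of all genes). Between treated and control lungs the gap was narrow, 0.705 CPM in treated library 3 (counting interval 0.520 to 0.934) against 0.660 CPM in control library 2 (0.465 to 0.910). Ptprn had 2.13 (SE 0.804, edgeR adjusted p 0.361) in hypoplastic against control and -1.49 (SE 0.774) in treated against hypoplastic lungs, with overlap. Cpe, the carboxypeptidase that trims peptide precursors, was at 36.3, 45.7 and 21.3 CPM in hypoplastic lungs, 24.4 to 31.5 CPM in control and 17.9 to 24.6 CPM in treated lungs. It had -0.68 (SE 0.25, edgeR adjusted p 0.895) in treated against hypoplastic and -0.40 (SE 0.25) in treated against control lungs. The 2 highest libraries for Cpe were hypoplastic 2 and 1, as for Scg5.

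The 11 genes of vesicle release, of which 10 were tested, had medians of 0.29, -0.22 and 0.04 in the 3 comparisons, with no call. Without hypoplastic libraries 1 and 2 the first of these medians was -0.05 and the second 0.07. Unc13a, which primes vesicles for fusion, had 0.43 (SE 0.226) in hypoplastic against control, without overlap (16.7% of all genes), and 0.22 (SE 0.225) in treated against control lungs. Dnm1, a dynamin of vesicle recovery, had -0.25 (SE 0.248) in treated against hypoplastic, and Vamp2, a SNARE protein, -0.11 (SE 0.170) in treated against control lungs.

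Of 11 other genes of neuroendocrine products and sensing, 10 had values and 8 were tested, with medians of 0.14, -0.20 and -0.05 in the 3 comparisons and no call. Eno2, neuron-specific enolase, was at 109 CPM in hypoplastic library 2 and 10.2 to 54.0 CPM in the others, with 1.11 (SE 0.522, edgeR adjusted p 0.420) in hypoplastic against control and -0.90 (SE 0.519) in treated against hypoplastic lungs. Robo1, a guidance receptor, had 0.36 (SE 0.231) in hypoplastic against control. Ddc, the enzyme that makes serotonin and dopamine from their precursors, had -0.30 (SE 0.203) in treated against hypoplastic and -0.23 (SE 0.203) in treated against control lungs. Uchl1, a ubiquitin hydrolase used to stain these cells, had 0.28 (SE 0.253) in treated against control lungs. Calcb, the paralog of Calca, had 13 counts in each of hypoplastic libraries 1 and 2, 7 in treated library 1 and 0 in the other 6. It is named after its values were seen, and reads shared by the 2 paralogs could be counted for either.

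Receptors of the peptides were tested for 5 of 7 genes, with medians of 0.07, -0.28 and -0.04 in the 3 comparisons and no call. Ramp2, a partner of the calcitonin receptor-like receptor, had -0.19 (SE 0.127) in hypoplastic against control and 0.15 (SE 0.127) in treated against hypoplastic lungs. Ramp1, the partner that makes this receptor bind the calcitonin gene-related peptide, had 0.71 (SE 0.558) in hypoplastic and 0.43 (SE 0.558) in treated against control lungs. Ramp3 had -0.63 (SE 0.344) in treated against hypoplastic and -0.29 (SE 0.346) in treated against control lungs. Grpr, the receptor of gastrin-releasing peptide, named after its values were seen, was at 0.475, 0.767 and 0.597 CPM in control, 0.275, 0.0490 and 0.398 CPM in hypoplastic, and 0.237, 0.215 and 0.0587 CPM in treated lungs. The control lungs lay above all lungs of both other groups. Of all genes, 16.7% had no overlap in hypoplastic and 9.39% in treated against control lungs. Its log2 fold change was -1.35 (SE 0.571, edgeR adjusted p 0.389) in hypoplastic and -1.79 (SE 0.575, edgeR adjusted p 0.998) in treated against control lungs, and neither was called.

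The genes whose pattern over the 9 libraries was most like the mean standardised log2 CPM of the 5 tested members were Ndrg4 (Pearson's r 0.945), Papss2 (0.943), Lactb2 (0.941), Mrgprf (0.940) and Ptgr1 (0.932). They were the top of 11352 genes with at least 1 CPM, and the r values are a description over 9 libraries that share the 3 groups. The member score was highest in hypoplastic libraries 1 (1.40) and 2 (0.92) and lowest in control library 2 (-0.94), with hypoplastic library 3 at -0.15. Mrgprf, an orphan receptor gene, was at 2.53, 2.42 and 0.977 CPM in hypoplastic lungs, 0.410 to 1.06 CPM in control and 0.645 to 0.881 CPM in treated lungs. Ndrg4 was at 5.52, 4.10 and 3.77 CPM in hypoplastic lungs, 2.37 to 3.87 CPM in control and 2.30 to 3.26 CPM in treated lungs. None of the 5 was called in any comparison.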

How the data were processed

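Total RNA of 9 lungs was extracted on 1 day, per the labels' protocols. The authors deposited estimated counts per gene for 17465 NCBI Gene IDs, and 35.8% of all values were exactly whole (no tolerance). The submitters' processing notes name the genome build rn7 and the tool DESeq2, with no role given. The sources used here do not give the aligner, counter or strand setting. Symbols came from a RefSeq table of GRCr8 (17314 IDs, 99.1%, matched).

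Estimated counts were rounded. Genes were tested with edgeR's quasi-likelihood test (edgeR 4.0.16, R 4.3.3) with TMM and filterByExpr, with all 9 libraries in 1 fit (6 residual degrees of freedom), fitted on 12966 genes with Benjamini-Hochberg adjustment. Alternatives used DESeq2 1.42.0 and limma 3.58.1 (voom), other scalings and filters, sex (from Xist and Y-linked genes) as a term and left-out libraries. Standard errors are the fold change divided by the square root of F. Libraries of 1 group differed beyond counting error (chi-square at least 122.4 per degree of freedom). No annotated gene of GRCr8 overlaps a member. Piezo2 and Foxd3 were not analysed here.

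The members and lists were chosen with earlier results of these data known. Named genes are all members, the 2 genes of smallest p with at least 1 CPM in each list and comparison, unless a gene was called, and the 5 most similar genes. For cell type lists the values of some of these are left out of the text, and some genes that the rule names are not reported here.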

Additional observations from a re-analysis of the deposited data

How the results depend on the processing

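No member was called (0 in each of the 3 comparisons) under the other scalings (RLE, TMMwsp), both other filters, DESeq2, limma voom, the 6 libraries compared alone, the sex term, removal of 6 ribosomal and 7SL rows and the omission of hypoplastic libraries 1 and 2. With 1 library left out, the members called numbered 0 to 1 in hypoplastic against control and 0 to 1 in treated against hypoplastic lungs, and the 1 was Chgb, without hypoplastic library 3. With the replicate block 0 members were called in each comparison. The block gave 2 genes over the whole table in hypoplastic against control. The labels give replicate numbers without saying that they pair lungs. Deviations of same-numbered libraries correlated at -0.271 to 0.211, over 0.1 in 3 of 9 pairs, and 0 of 9 libraries correlated best with their own number.

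Over all genes, the count called (1, 0 and 0) was 202, 17 and 14 with DESeq2, 4 in hypoplastic against control with only the 6 libraries compared, and 2 and 1 in the first 2 comparisons without hypoplastic libraries 1 and 2. With 1 library left out it was 0 to 45, 0 to 44 and 0 to 1. The cause was not tested.

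Signs turned without hypoplastic libraries 1 and 2 for Scg2 (-2.46) and Scg5 (-1.01) in hypoplastic against control and for Scg2 (1.852) and Scg5 (0.0711) in treated against hypoplastic lungs. With 1 library left out the ranges crossed 0 for Calca in hypoplastic against control (-0.004623 to 0.9082). In treated against control lungs they did for Calca (-0.7892 to 0.1251), Chga (-0.6214 to 0.4218), Syp (-0.2083 to 0.3577), Scg2 (-1.114 to 0.3847) and Scg5 (-1.32 to 0.1301). Syp in that comparison was -0.00807 with DESeq2 and -0.1532 with the sex term. None of these was called. A filter of 1 CPM in 3 libraries left only Calca to test, and with the 6 libraries compared alone Scg2 had no value in the comparisons with treated lungs. Members had 0 to 119 counts per library, so depth limits what could be detected.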
